A study of Sus scrofa with 16 samples.

Results

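Heme synthesis and breakdown genes were described in the liver of pigs fed 3 dietary fats, with ALAS1, the first enzyme of the pathway, set against the later steps and against heme breakdown. The 9 members, of 14857 counted genes with a symbol, were selected by gene symbol and place in the pathway and by differences between diets measured in these same pigs. The difference of ALAS1 between coconut oil and rapeseed oil was among them. For that reason their differences between diets are given as a description and nothing is supported with them. Members called between diets are only counted, beside the share of all genes called. They are 7 synthesis genes (ALAS1, ALAD, UROS, UROD, CPOX, PPOX and FECH) and 2 breakdown genes (HMOX1 and BLVRB). Reads enough for a fit were present for 8 of them, and PPOX stayed below the filter on low counts.

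Heme is an iron-holding ring that liver cells build for catalase and for the oxidases that act on drugs, sterols and bile acids. ALAS1 starts the chain in the mitochondrion by joining glycine to succinyl-CoA, and in liver it is the rate-limiting step and is held down by heme itself. The steps that follow turn its product into protoporphyrin, into which FECH sets iron, and heme is later opened by heme oxygenase to biliverdin, which biliverdin reductases turn into bilirubin.

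The series holds 1 liver library from each of 16 crossbred pigs, born to Polish Landrace x Polish Large White sows and sired by Duroc x Pietrain boars. Rapeseed oil was fed to 5 pigs (group R, 2 barrows with 3 gilts), beef tallow to 5 (group B, 3 barrows with 2 gilts) and coconut oil to 6 (group C, 3 of each sex), in feeds alike in energy and protein. All pigs were kept in single pens and fattened from about 60 to 118 kg, and their ages are not given in the sources used here. Group R served as the reference, and its 5 pigs enter both the comparison with group B and that with group C, which are therefore not independent of each other. Reads counted on genes ran from 801172 to 1425550 per pig in group R, from 879114 to 1490944 in B and from 705669 to 1767671 in C. Levels are read counts scaled to library size (CPM, after TMM normalization). A log2 fold change is positive where the diet named first is higher.

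The tissue label was checked against markers of liver cells. ALB, the plasma albumin gene made by hepatocytes, had a mean of 88809 CPM, and the summed hepatocyte markers reached 182755 ± 22807 CPM (SD, n = 5) in group R, 165096 ± 44078 CPM (n = 5) in B and 182667 ± 35193 CPM (n = 6) in C. One hepatocyte marker, SERPINA1, was counted at a mean of only 0.305 CPM. Pig 3 of group B stood apart from the rest. The median correlation of its log2 CPM with the other 15 libraries, across 6891 genes that are not independent replicates, was 0.867, against 0.922 to 0.937 for the other libraries. Its summed hepatocyte markers were the lowest of the 16 pigs, at 102052 CPM, and its summed macrophage markers the highest, at 3052 CPM.

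Levels were first compared between the members. In libraries made from the 3′ ends of mRNA a transcript gives about 1 tag whatever its length, so CPM was compared between genes without division by length. Over the 16 pigs the mean level was 155 CPM for HMOX1, 132 CPM for ALAS1, 123 CPM for CPOX, 107 CPM for ALAD and 97.3 CPM for UROS. These 5 neighbours in the order were not set apart by their spread, since HMOX1 was above ALAS1 in 8 of 16 pigs, ALAS1 above CPOX in 9, CPOX above ALAD in 12 and ALAD above UROS in 10. UROS was above BLVRB (58.9 CPM) in 14 pigs, and BLVRB was above UROD (19.9 CPM) in all 16. UROD and FECH (17.8 CPM) were not separated, with UROD higher in 10 pigs, and PPOX came last at 0.899 CPM. The order pools diets and did not hold within each, as ALAS1 had the highest mean of the members in group C (178 CPM) but a lower one than HMOX1, CPOX, ALAD, UROS and BLVRB in group R (62.6 CPM). It is the order of the reads counted: reads with several alignments or outside annotated genes were not counted, and a low value such as that of PPOX, or of SERPINA1 at 0.305 CPM, may not show a low transcript level.

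**Figure D1:**
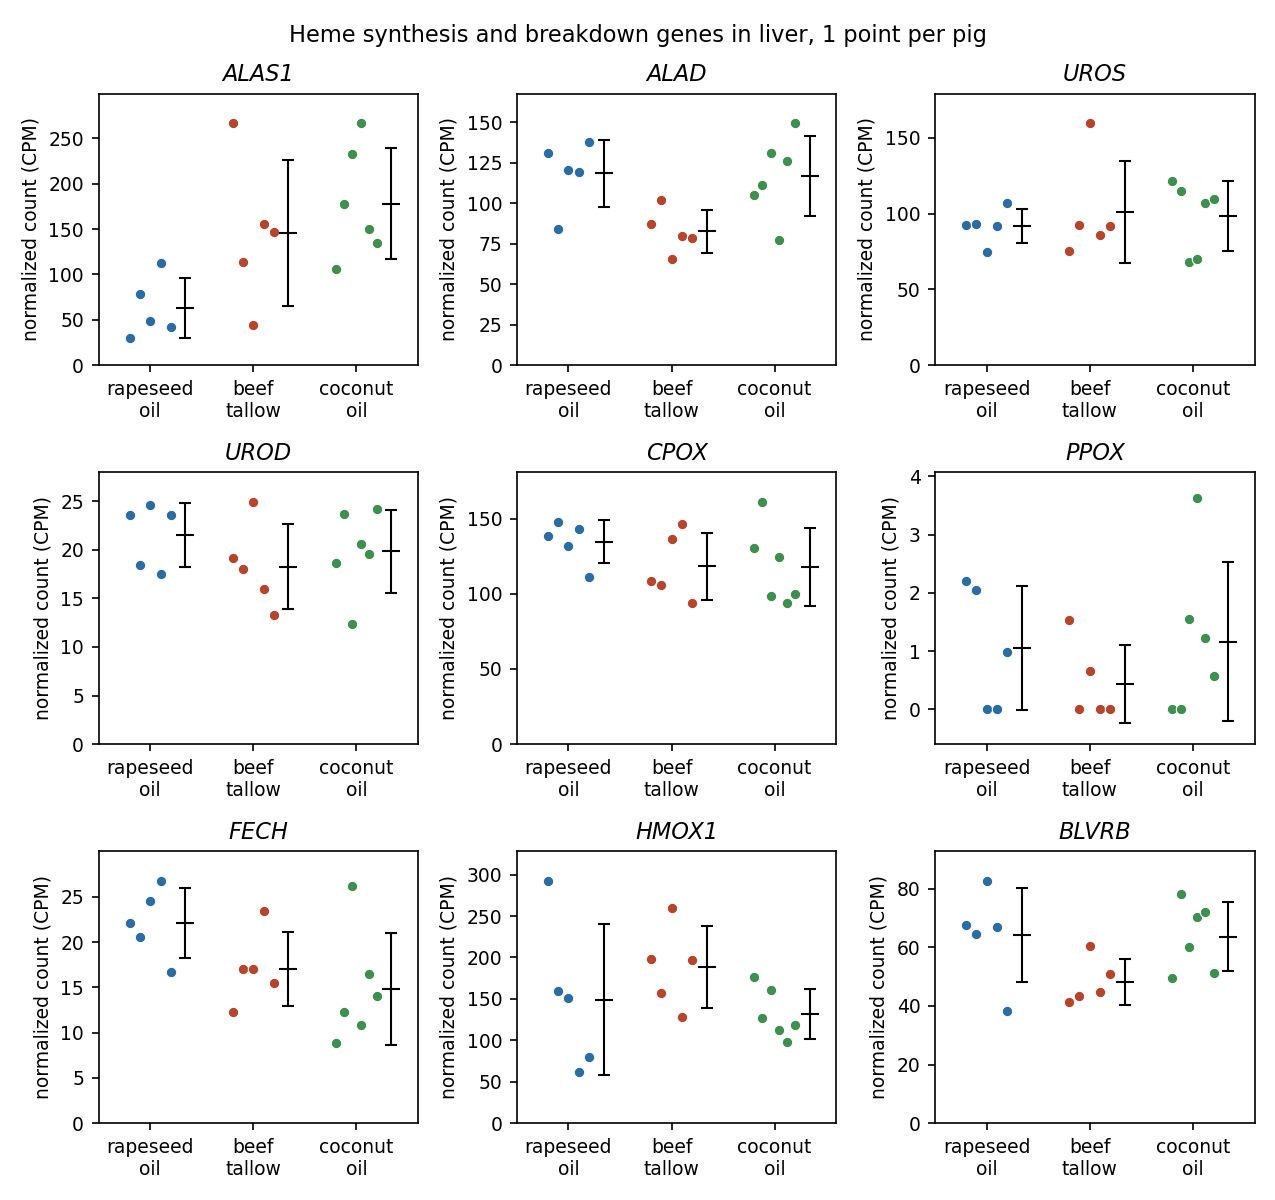
Normalized read count (CPM, vertical axis, own scale in each panel) of the 9 heme genes in the liver of each pig, by diet. Points are pigs and the black bars give the mean ± SD for rapeseed oil (5 pigs), beef tallow (5 pigs) and coconut oil (6 pigs); the ALAS1 means are 62.6, 146 and 178 CPM, and the groups overlap in every panel.

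ALAS1 (ENSSSCG00000011437, Sscrofa11.1 chromosome 13, 34333263 to 34347435) differed most from rapeseed oil among the members fitted. Its level in pigs 1 to 5 of group R was 30.2, 79.0, 49.1, 112 and 42.3 CPM. In pigs 1 to 5 of group B it was 267, 114, 44.6, 156 and 147 CPM, and in group C it ran from 106 to 267 CPM with a median of 164 CPM. The groups overlapped at 2 points: pig 3 of group B was low, within the range of group R, and pig 4 of group R was high, above the lowest pig of group C. Otherwise 4 of 5 pigs of group B and 5 of 6 pigs of group C lay above every pig of group R. Group means were 62.6 ± 33.1 CPM (SD, n = 5) in R, 146 ± 80.6 CPM (n = 5) in B and 178 ± 61.4 CPM (n = 6) in C.

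The fitted difference of ALAS1 was a log2 fold change of 1.22 (SE 0.40) in beef tallow against rapeseed oil, or 2.33-fold. It was 1.50 (SE 0.30), or 2.83-fold, in coconut oil against rapeseed oil. Between coconut oil and beef tallow it was 0.28 (SE 0.34), smaller than its own error. Without pig 3 of group B the first value was 1.46 (SE 0.32) and the third 0.04 (SE 0.26), and without pig 1 of group B they were 0.87 and 0.63. The coefficient of variation of ALAS1 between pigs was 52.9% in group R, 55.4% in B and 34.4% in C, where the number of reads alone, each taken as independent, would give 12.7%, 7.89% and 7.10%.

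Within each pig, ALAS1 was then set against the 6 later genes, a ratio that does not depend on library size. ALAS1 made up 13.5% ± 6.18 (SD, n = 5) of the reads of the 7 synthesis genes in group R, 29.2% ± 13.4 (n = 5) in B and 32.2% ± 9.53 (n = 6) in C. The lowest share was 6.86%, in pig 1 of group R (exact binomial 95% interval 4.96% to 9.19%), and the highest was 46.7%, in pig 1 of group B (43.1% to 50.4%). Pig 4 of group C came close to it with 46.5%. Pig 3 of group B had 9.93% (7.79% to 12.4%), lower than 3 of the 5 pigs of group R. These intervals cover counting error only.

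On the log2 scale the ratio of ALAS1 reads to later reads was −2.79 ± 0.78 in group R, −1.42 ± 1.10 in B and −1.11 ± 0.63 in C. The ratio differed by 1.37 (SE 0.60) between groups B and R, by 1.68 (SE 0.42) between C and R, and by 0.31 (SE 0.53) between C and B. Without pig 3 of group B the difference between B and R was 1.82, and that between C and B was −0.13, of opposite sign. Without pig 1 of group B they were 1.07 and 0.61. The denominator varied less than ALAS1 did, as the summed later steps ran from 366 to 410 CPM in group R, from 293 to 405 CPM in B and from 307 to 423 CPM in C.

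**Figure D2:**
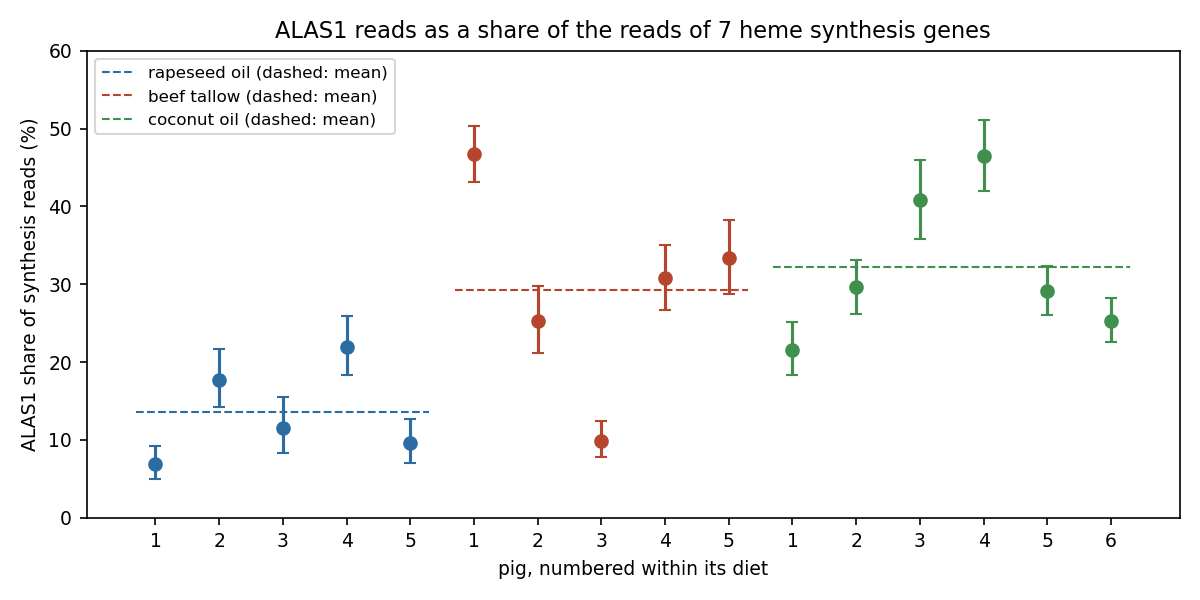
ALAS1 reads as a percentage of the reads of the 7 heme synthesis genes (vertical axis) in each of 16 pigs (horizontal axis, numbered within the diet). Points are pigs, bars are exact binomial 95% intervals for counting error and dashed lines are diet means, at 13.5% for rapeseed oil, 29.2% for beef tallow and 32.2% for coconut oil; pig 3 of the beef tallow group lies at 9.93%.

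Among the later steps with ample reads, ALAD differed most in the 2 pairs with beef tallow, but not in coconut oil against rapeseed oil. ALAD (ENSSSCG00000032787, chromosome 1, 254015426 to 254027584) encodes the enzyme that joins the products of ALAS1 into porphobilinogen. Its level in pigs 1 to 5 was 131, 84.1, 120, 120 and 138 CPM in group R and 87.1, 102, 65.6, 79.7 and 78.5 CPM in group B. It ran from 77.5 to 150 CPM with a median of 119 CPM in group C. All groups overlapped, with 3 of 5 pigs of group B below every pig of group R and 5 of 6 pigs of group C above every pig of group B. The log2 fold change was −0.53 (SE 0.19) in beef tallow against rapeseed oil, −0.02 (SE 0.18) in coconut oil against rapeseed oil and 0.51 (SE 0.19) in coconut oil against beef tallow.

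FECH (ENSSSCG00000004541, chromosome 1, 106861628 to 106898407), the last step, rested on few reads, between 9 and 30 per pig. It was counted at 16.7 to 26.8 CPM in group R and at 12.2 to 23.4 CPM in group B. In group C it lay between 8.90 and 26.2 CPM, with a median of 13.2 CPM. In group C, 5 of 6 pigs were below every pig of group R and pig 3 was close to the highest of them. The log2 fold change was −0.62 (SE 0.26) in coconut oil against rapeseed oil, −0.38 (SE 0.25) in beef tallow against rapeseed oil and −0.22 (SE 0.28) in coconut oil against beef tallow. The last value ran from −0.41 (without pig 3 of group C) to −0.09 (without pig 4 of group B). Counting alone would give a coefficient of variation of 21.1% in group R, 23.1% in B and 24.1% in C, against 17.4%, 23.8% and 41.7% seen.

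UROS (ENSSSCG00000010742, chromosome 14, 135101609 to 135131082), which closes the ring of uroporphyrinogen, was at 92.0 ± 11.4 CPM in group R, 101 ± 33.6 CPM in B and 98.5 ± 23.4 CPM in C. Its level in pig 3 of group B was 160 CPM, against 75.6 to 92.3 CPM in the other 4 pigs of that group. The sign of its difference between groups B and R turned on that pig, with a log2 fold change of 0.14 (SE 0.21) with it and −0.10 (SE 0.16) without it. UROD (ENSSSCG00000003922, chromosome 6, 166327243 to 166330558), which removes carboxyl groups from the ring, lay between 12.3 and 24.9 CPM over all pigs, with 8 to 43 reads each. CPOX (ENSSSCG00000011978, chromosome 13, 160332436 to 160345862), which oxidizes coproporphyrinogen, lay between 93.5 and 161 CPM. The log2 fold changes of UROS, UROD and CPOX in the 3 pairs of diets were between −0.22 and 0.14, none larger than its SE but those of CPOX in groups B and C against R (−0.18, SE 0.17, and −0.19, SE 0.16). With all pigs UROS was at −0.03 (SE 0.22) between C and B, and UROD at −0.22 (SE 0.24) between B and R and 0.12 (SE 0.23) between C and B. Without pig 3 of group B these were 0.21 (SE 0.19), −0.36 (SE 0.24) and 0.27 (SE 0.24), each larger than its SE. PPOX (ENSSSCG00000006361, chromosome 4, 89277984 to 89288946), which makes protoporphyrin, had 6 reads in group R, 3 in B and 7 in C, with 0 reads in 7 pigs, and a difference between diets was not detectable at this depth.

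The breakdown genes were led by HMOX1 (ENSSSCG00000039745, on a sequence not placed on a chromosome of Sscrofa11.1), the inducible heme oxygenase. Its level was 293, 160, 151, 61.8 and 79.7 CPM in pigs 1 to 5 of group R and 199, 157, 259, 129 and 197 CPM in those of group B. It ran from 97.8 to 176 CPM with a median of 123 CPM in group C. Group R held both the highest and the lowest pig and spanned the whole range of the other groups, while 4 of 6 pigs of group C were below every pig of group B. The log2 fold change was 0.33 (SE 0.33) in beef tallow against rapeseed oil, −0.20 (SE 0.30) in coconut oil against rapeseed oil and −0.52 (SE 0.20) in coconut oil against beef tallow. These values of HMOX1 moved with single pigs. The first ran from 0.14 (without pig 4 of group R) to 0.74 (without pig 1 of group R) and was 0.18 without pig 3 of group B, the second was 0.22, of opposite sign, without pig 1 of group R, and the third was −0.37 without pig 3 of group B. BLVRB (ENSSSCG00000021067, chromosome 6, 48715540 to 48728433), a biliverdin reductase, ran from 38.4 to 82.7 CPM in group R, from 41.3 to 60.4 CPM in B and from 49.4 to 78.0 CPM in C. The log2 fold change of BLVRB was −0.40 (SE 0.21), −0.01 (SE 0.19) and 0.40 (SE 0.18) in the same 3 comparisons, and all groups overlapped.

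The summed breakdown genes were at 213 ± 98.0 CPM in group R, 236 ± 55.6 CPM in B and 196 ± 24.9 CPM in C. The log2 ratio of ALAS1 reads to breakdown reads was −1.80 ± 1.24 in group R, −0.88 ± 1.17 in B and −0.20 ± 0.54 in C. The differences were 0.92 (SE 0.76) between B and R, 1.61 (SE 0.56) between C and R and 0.69 (SE 0.53) between C and B, and without pig 3 of group B the first was 1.41 and the third 0.20. With each pig left out the first ran from 0.48 (without pig 1 of group R) to 1.41, the second from 1.16 to 2.01 and the third from 0.20 to 0.94. Breakdown reads outnumbered ALAS1 reads in every pig of group R. ALAS1 reads were the more numerous in pig 1 of group B and in pigs 3 and 4 of group C.

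**Figure D3:**
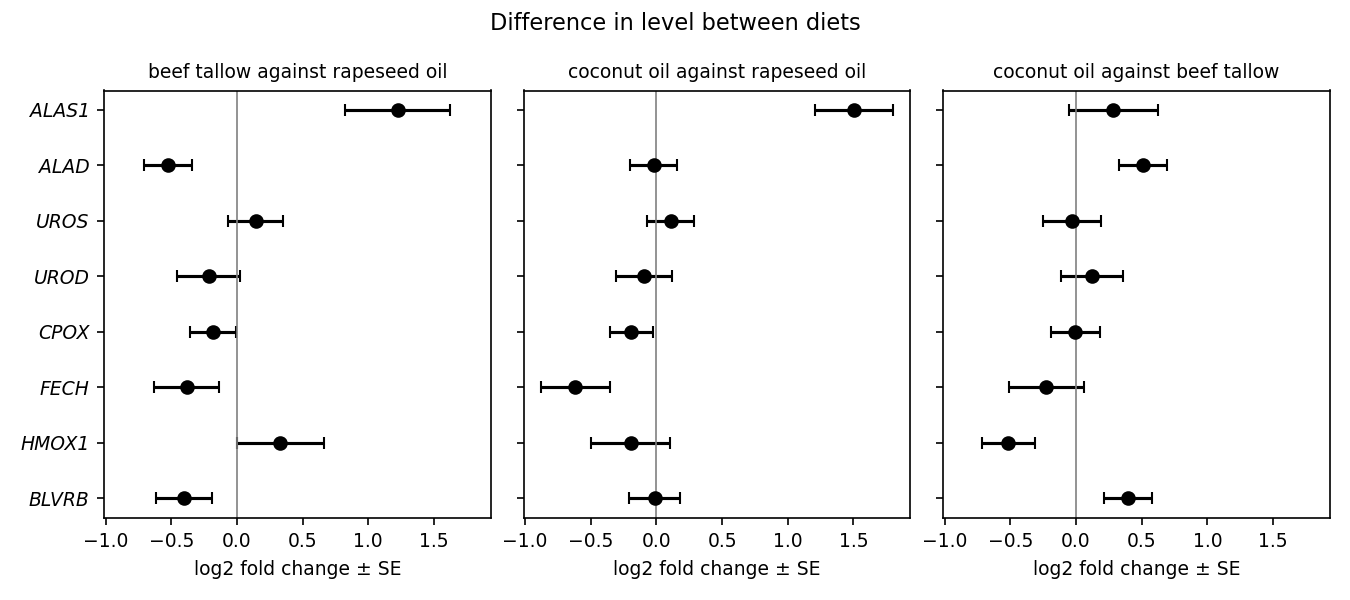
Log2 fold change ± SE (horizontal axis) of the 8 heme genes with reads enough for a fit, in the 3 pairs of diets (panels; a positive value is higher in the diet named first). There were 5 pigs on rapeseed oil, 5 on beef tallow and 6 on coconut oil; ALAS1 has the largest values against rapeseed oil, at 1.22 and 1.50, and lies at 0.28 between coconut oil and beef tallow.

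By the quasi-likelihood test of edgeR at an adjusted p of 0.05, 0 of 8 members were called in beef tallow against rapeseed oil, where 1.11% of 6318 genes were called. In coconut oil against rapeseed oil 0 of 8 were called, beside 0.138% of 6528 genes, and in coconut oil against beef tallow 0 of 8, beside 0.0587% of 6812 genes. At an unadjusted p under 0.05 the counts were 2, 2 and 3 of 8, beside 947 of 6318, 847 of 6528 and 780 of 6812 genes. DESeq2 called 0, 1 and 0, of 188, 93 and 53 genes in all. Since differences between diets chose the members, nothing is read from these counts. The same counts over all genes stand beside the counts of the related lists given here for these 3 pairs. Those lists and the marker lists were also chosen with earlier results of these data known. Calls in them between diets therefore describe these pigs and are not independent support.

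The genes of the pathway that are not members gave no call. Among them are the red cell form ALAS2, the second heme oxygenase HMOX2, the biliverdin reductase BLVRA and genes that alter or attach heme. Of 6 genes tested by edgeR, 0 were called in each of the 3 pairs of diets, 0 had an unadjusted p under 0.05 and DESeq2 called 0. The median log2 fold change was 0.01 in beef tallow against rapeseed oil, 0.04 in coconut oil against rapeseed oil and 0.02 in coconut oil against beef tallow, beside 0.01, −0.001 and −0.005 over all genes tested. HMOX2 had the highest level, at 141 CPM, with log2 fold changes of 0.00 (SE 0.17), 0.27 (SE 0.14) and 0.27 (SE 0.15) in the same order, and BLVRA, at 119 CPM, had −0.03 (SE 0.22), 0.11 (SE 0.19) and 0.14 (SE 0.19).

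Genes that bring substrate to ALAS1, move its products or govern its turnover were not called either. Of 12, 11 and 12 genes tested in the 3 pairs, edgeR and DESeq2 called 0, with 4, 1 and 2 at an unadjusted p under 0.05. PGRMC1, a heme-binding membrane protein and at 1036 CPM the most abundant, had a log2 fold change of −0.57 (SE 0.18, edgeR adjusted p = 0.141) in beef tallow against rapeseed oil. SUCLG2, a subunit of the enzyme that handles succinyl-CoA, was at 685 CPM with −0.21 (SE 0.17). Of the regulators of ALAS1 and HMOX1, 13, 14 and 14 were tested and edgeR and DESeq2 called 0, with 3, 1 and 0 at an unadjusted p under 0.05. Their median log2 fold change was 0.25 in beef tallow against rapeseed oil, −0.001 in coconut oil against rapeseed oil and −0.14 in coconut oil against beef tallow. NR1I3, PPARA, PPARGC1B, NRF1, NR1D1, ESRRA and EIF2AK1 were counted at no more than 3.70 CPM and were not tested. Nothing is shown about these regulators. HNF4A, a nuclear receptor of hepatocytes, was the most abundant at 427 CPM (0.51, SE 0.24, adjusted p = 0.323 in beef tallow against rapeseed oil), followed by RXRA, the shared partner of many nuclear receptors, at 196 CPM (0.04, SE 0.21).

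The list of heme-carrying enzymes included the clearest change among the lists. It also holds POR, an electron donor of cytochromes P450, and HSD17B10, counted at 0 CPM, which carry no heme. POR is part of the counts and medians given here, and was at −1.21 (SE 0.37, edgeR adjusted p = 0.257) in coconut oil against beef tallow. The study had already reported CYP7A1 as lower with beef tallow in these same pigs. CYP7A1, the rate-limiting enzyme of bile acid synthesis, was at 96.8 to 243 CPM in the 5 pigs of group R and at no more than 61.5 CPM in the 5 of group B, with no overlap. In group C it ran from 33.8 to 186 CPM. It fell in beef tallow against rapeseed oil (log2 fold change −2.63, SE 0.39, edgeR adjusted p = 0.00677, lower in 5 of 5 pigs) and was called in each of the 10 fits with 1 pig left out. CYCS, the cytochrome c of the respiratory chain, rose in the same comparison (1.08, SE 0.21, adjusted p = 0.0285), from 73.7 to 135 CPM in group R to 157 to 283 CPM in group B. With 1 pig left out, CYCS was called only without pig 2 or 4 of group R or pig 3 or 5 of group B (adjusted p from 0.0203 to 0.0903). Of 19 genes of the list tested in each pair, 1 rose and 1 fell in beef tallow against rapeseed oil, where DESeq2 called 3, and edgeR called 0 in the other 2 pairs, where 5 and 5 had an unadjusted p under 0.05 and DESeq2 called 2 and 1. The median log2 fold change was −0.17, −0.11 and 0.13 in the 3 pairs. CYP7A1 was the 1 DESeq2 call in coconut oil against beef tallow (log2 fold change 2.11, SE 0.46, edgeR adjusted p = 0.131, DESeq2 adjusted p = 0.00068). In coconut oil against rapeseed oil CYP7A1 was at −0.53 (SE 0.33). The most abundant genes of the list, CYP2A19 (7927 CPM) and CAT, which encodes catalase (5504 CPM), had −0.25 (SE 0.29) and −0.67 (SE 0.21, edgeR adjusted p = 0.135, DESeq2 adjusted p = 0.0492) in beef tallow against rapeseed oil. CAT had −0.41 (SE 0.14, edgeR adjusted p = 0.239, DESeq2 adjusted p = 0.0214) in coconut oil against rapeseed oil.

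Among NFE2L2 target genes, 9 were tested in each pair. GCLC, the catalytic subunit of the first step of glutathione synthesis, fell in beef tallow against rapeseed oil (log2 fold change −1.34, SE 0.27, edgeR adjusted p = 0.0285), from 23.6 to 44.0 CPM in group R to 9.93 to 17.1 CPM in group B. With 1 pig left out it was called only without pig 2 or 4 of group R or pig 3 of group B (adjusted p from 0.0190 to 0.0878). In the other 2 pairs edgeR and DESeq2 called 0, with 3 and 0 at an unadjusted p under 0.05, and the median of the list was −0.15, −0.22 and −0.003. MGST1, a microsomal glutathione transferase (821 CPM), and TALDO1 of the pentose phosphate pathway (107 CPM) were the most abundant, with −0.66 (SE 0.27, adjusted p = 0.257) and −0.13 (SE 0.23) in beef tallow against rapeseed oil.

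Of genes that take up, export or scavenge heme, 8, 6 and 7 were tested. CD163, the macrophage receptor that clears hemoglobin bound to haptoglobin, rose in beef tallow against rapeseed oil (log2 fold change 0.79, SE 0.17, edgeR adjusted p = 0.0414), from 85.6 to 131 CPM in group R to 161 to 222 CPM in group B, and was called with 1 pig left out only without pig 4 of group R or pig 3 of group B (adjusted p from 0.0285 to 0.104). In the other 2 pairs edgeR and DESeq2 called 0, with 0 and 3 at an unadjusted p under 0.05, and the median of the list was −0.11, 0.22 and 0.20. HPX, the plasma heme carrier hemopexin (5369 CPM), had −0.11 (SE 0.16) and HRG, a heme-binding plasma glycoprotein (4117 CPM), −0.06 (SE 0.22) in beef tallow against rapeseed oil. Of 18, 18 and 20 iron handling genes edgeR and DESeq2 called 0, with 2, 4 and 5 at an unadjusted p under 0.05 and medians of −0.12, −0.08 and −0.07. The most abundant genes of the iron list, TF, which encodes transferrin (19553 CPM), and the copper oxidase CP (2644 CPM), had −0.38 (SE 0.17, edgeR adjusted p = 0.368) and 0.04 (SE 0.19) in coconut oil against rapeseed oil. The hepcidin gene HAMP (0 CPM) and the ferritin gene FTL (0.870 CPM) were not tested. Such values may not show a low transcript level, and nothing is shown about these 2 genes.

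In bulk tissue, fewer cells of a type cannot be told apart from less RNA per cell, so markers of the cells that could bring heme genes with them were measured. Red cell markers summed to 2266 ± 1713 CPM in group R, 2254 ± 534 CPM in B and 3060 ± 1689 CPM in C, nearly all of it HBB, the beta globin (mean 2479 CPM). Of the 11 red cell markers counted, 4 to 7 were at 0 in each pig, RHAG in all. Of the 4 tested, edgeR and DESeq2 called 0 in each pair of diets, and 0 had an unadjusted p under 0.05. Kupffer cell and macrophage markers, cells that break down the heme of old red cells, summed to 1941 ± 404 CPM in group R, 2152 ± 537 CPM in B and 1621 ± 181 CPM in C. Without pig 3 the sum of group B was 1927 ± 216 CPM (n = 4), close to that of group R. Each pig had reads for at least 14 of the 15, the most abundant was the protease CTSS (561 CPM), and of 13 tested, CD163 alone was called in beef tallow against rapeseed oil. In that pair 9 of the 13 were positive and 4 negative, with a median of 0.15. In coconut oil against beef tallow 11 of the 13 were negative and 5 had an unadjusted p under 0.05, where 11.5% of all genes did, but edgeR called 0 and DESeq2 called 1, with a median of −0.44. In coconut oil against rapeseed oil 10 of the 13 were negative and 2 had such a p, edgeR called 0 and DESeq2 called 1, with a median of −0.12. Pig 3 of group B had the highest sum of its group and its highest HMOX1, at 259 CPM. The part of macrophages in the level of HMOX1 was not tested.

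Of 14 hepatocyte markers tested, TTR, which carries thyroid hormone, fell in beef tallow against rapeseed oil (log2 fold change −0.78, SE 0.17, edgeR adjusted p = 0.0426), and it was called with 1 pig left out only without pig 1 or 3 of group B (adjusted p from 0.0308 to 0.111). The list went both ways in this pair, with 6 positive and 8 negative, a median of −0.03 and 2 called by DESeq2, and CPS1 of the urea cycle was at 0.83 (SE 0.20, edgeR adjusted p = 0.0627). Of 10 sinusoidal endothelial and stellate markers, LYVE1 of the liver sinusoids rose in the same comparison (0.88, SE 0.20, adjusted p = 0.0495), called only without pig 2 or 3 of group B (adjusted p from 0.0338 to 0.141). Of those 10 markers 4 were positive and 6 negative, with a median of −0.11. DESeq2 called LYVE1 (adjusted p = 0.0126) and also RGS5 (adjusted p = 0.00693), a listed marker that edgeR did not test and that is not among the 10. The most abundant of that list was the collagen COL3A1 at 219 CPM, and the list summed to 924 ± 219, 923 ± 196 and 873 ± 153 CPM in groups R, B and C. In coconut oil against each other diet edgeR called 0 of both lists. Against rapeseed oil 2 hepatocyte and 3 sinusoidal markers had an unadjusted p under 0.05 and DESeq2 called 0 and 1, and against beef tallow 4 and 1 had such a p and DESeq2 called 2 and 0. Bile duct markers, led by SPP1 at 7.86 CPM, were too low to be tested. Of 2 lymphocyte and neutrophil markers tested, among them JCHAIN at 21.9 CPM, edgeR and DESeq2 called 0, with 0, 1 and 0 at an unadjusted p under 0.05.

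Sex and the interaction of diet and sex did not enter the choice of the members and were tested. Between 8 barrows and 8 gilts, 0.0786% of 6365 genes were called and 0 of 8 members, with 0 at an unadjusted p under 0.05 and 0 by DESeq2. ALAS1 was at 128 ± 84.8 CPM in gilts and 136 ± 72.1 CPM in barrows (log2 fold change 0.09, SE 0.38, edgeR adjusted p = 0.998), and with each pig left out it ran from −0.11 (without pig 4 of group C) to 0.35 (without pig 1 of group B). Over the 4 alternatives of the sex test, diet as a covariate among them, this value ran from −0.13 to 0.10, so its sign was not fixed. The member with the largest difference was HMOX1, at 176 ± 76.3 CPM in gilts and 134 ± 34.9 CPM in barrows (−0.41, SE 0.24, adjusted p = 0.998), and −0.26 without pig 1 of group R and −0.31 without pig 3 of group B. In the same comparison 12 of 13 Kupffer cell and macrophage markers were negative, with a median of −0.32 and 4 at an unadjusted p under 0.05, where 4.02% of all genes were, and edgeR and DESeq2 called 0. The effect of diet on ALAS1 was larger in barrows than in gilts by 0.94 on the log2 scale (SE 0.59) in coconut oil against rapeseed oil, by 0.52 (SE 0.84) in beef tallow against rapeseed oil and by 0.41 (SE 0.71) in coconut oil against beef tallow, none of which passed (edgeR adjusted p = 0.998, 0.998 and 1.00). Of 7311, 7438 and 7736 genes tested for this interaction in beef tallow against rapeseed oil, coconut oil against rapeseed oil and coconut oil against beef tallow, edgeR called 0, with 297, 304 and 279 at an unadjusted p under 0.05, and DESeq2 called 1, 1 and 0. Without the filter on low counts edgeR called 13, 24 and 10. With 2 or 3 pigs of a sex per diet, these errors allow large differences.

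The members were then compared within diets, with the mean of each diet removed from log2 CPM, so that differences between diets play no part. ALAS1 was compared with 6890 genes over 16 pigs by permutation of the pigs within their diets (100000 permutations, two-sided). UROS was the member most opposed to ALAS1, with Pearson r = −0.73 (permutation p = 0.00392, adjusted p = 0.102) and Spearman rho = −0.67 (permutation p = 0.00586, adjusted p = 0.151), which does not pass the adjustment. Without pigs 3 and 1 of group B, the farthest from the median of ALAS1, r was −0.51, and without pig 3 alone −0.55 (adjusted p = 0.319). The pigs with the lowest and the highest ALAS1 of their diet had UROS at 92.7 and 91.7 CPM in group R, 160 and 75.6 CPM in B and 121 and 70.2 CPM in C. Taken diet by diet, r of UROS with ALAS1 was −0.07 in group R (n = 5), −0.97 in B (n = 5) and −0.89 in C (n = 6). A difference between diets in this relation was not tested. UROD had r = −0.56 (permutation p = 0.0363, adjusted p = 0.254; rho = −0.56, permutation p = 0.0389) and HMOX1 r = −0.48 (permutation p = 0.0907, adjusted p = 0.375; rho = −0.36, permutation p = 0.224). Without pig 3 of group B these were −0.37 for UROD and −0.41 for HMOX1. ALAD, CPOX, FECH and BLVRB lay between −0.11 and 0.13, but without that pig ALAD was at −0.44, CPOX at 0.15, FECH at 0.19 and BLVRB at 0.25 (adjusted p = 0.515, 0.854, 0.801 and 0.807). Among all 28 pairs of the 8 members r was positive in 12, with a median of −0.03 and a range from −0.73 to 0.54, the highest being that of UROS and UROD.

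**Figure D4:**
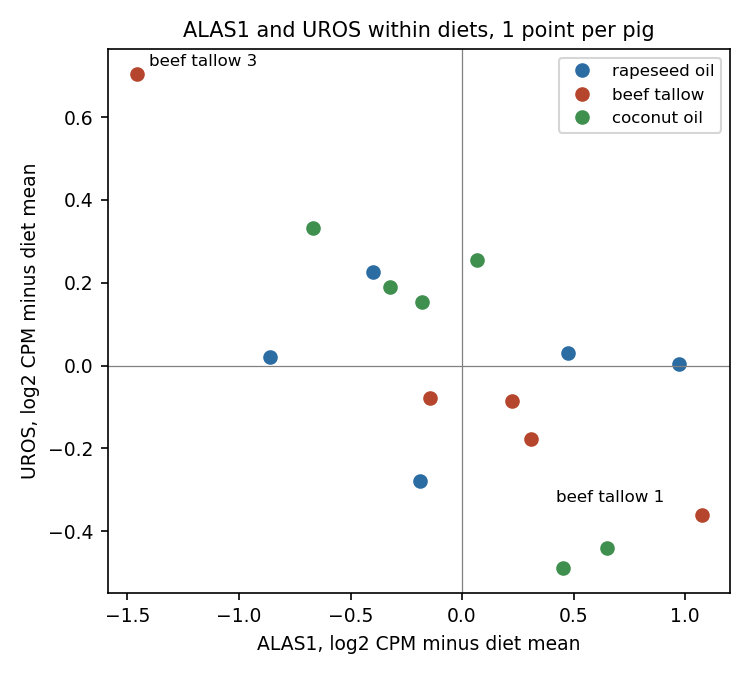
ALAS1 (horizontal axis) against UROS (vertical axis) in 16 pigs, each as log2 CPM minus the mean of the pig's diet; points are pigs, coloured by diet. Pearson r over the 16 pigs was −0.73 with an adjusted p of 0.102 (permutation test), and −0.51 without the labelled pigs 3 and 1 of the beef tallow group. Within single diets it was −0.07 (rapeseed oil), −0.97 (beef tallow) and −0.89 (coconut oil).

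Across all genes, 81 passed the adjustment by r, 45 with a positive and 36 with a negative r, and 40 passed by rho. This count rested on single pigs, as it was 2 without pig 3 of group B, 15 without pig 1, 39 without pig 2 and 31 without pig 4 of that group, 14 without pig 4 of group R, and 3 and 43 without pigs 1 and 3 of group C. Genes were named by rank only with a symbol and a mean of at least 20 reads. The most like ALAS1 of these were the splicing factor SF3B6 (r = 0.91, rho = 0.89, permutation p = 0.00012 and 7e-05) and EIF4G2 of translation initiation (0.88 and 0.78, permutation p = 0.00013 and 0.00193). Next came the liver homeobox factor PROX1 (0.87 and 0.86, permutation p = 5e-05 and 0.0001), the reductase PTGR2 (0.87 and 0.82, permutation p = 0.00023 and 0.00077) and VAPA of the endoplasmic reticulum (0.86 and 0.86, permutation p = 0.00031 and 3e-05). Over all 6890 genes they held ranks 2, 3, 4, 6 and 7 by r. The adjusted p for r was 0.0241 to 0.0388 for these 5 genes, but by rho EIF4G2 and PTGR2 did not pass (adjusted p = 0.108 and 0.0780). Most opposed were the cytokine receptor IL11RA (r = −0.92, rho = −0.91, permutation p = 2e-05 for both), the chromatin remodeller SMARCC1 (−0.89 and −0.89, permutation p = 0.00012 and 0.00011) and the gene annotated as FLT3LG, a cytokine (−0.89 and −0.88, permutation p = 9e-05 and 0.00012), with an adjusted p of 0.0172 to 0.0258. Without pigs 3 and 1 of group B r stayed between 0.73 and 0.86 for the first 5 and between −0.86 and −0.80 for the last 3.

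Among the listed genes, CEBPB, a liver transcription factor of the acute phase and the 1 call among 14 regulators, had r = 0.82 with ALAS1 (permutation p = 0.00018, adjusted p = 0.0335; rho = 0.78, permutation p = 0.00054, adjusted p = 0.0631; r = 0.68 without pigs 3 and 1 of group B). FGG, a fibrinogen chain and the 1 call among 14 hepatocyte markers, had r = 0.82 (permutation p = 0.0002, adjusted p = 0.0337; rho = 0.82, permutation p = 0.00027; r = 0.80 without those pigs). Hepatocyte markers had a median r of 0.41 with ALAS1, positive in 10 of 14, beside a median of 0.000546 over all genes. Kupffer cell and macrophage markers had a median of −0.13, positive in 3 of 13, and the 4 red cell markers one of −0.001, with no call in either. Without pigs 3 and 1 of group B the medians were 0.22 for macrophage markers (positive in 9 of 13), 0.13 for red cell markers (4 of 4) and 0.29 for hepatocyte markers (11 of 14). The part of cell composition in the within-diet spread of ALAS1 was not tested. The median r was 0.14 for the 6 other genes of the heme pathway and 0.12 for the 12 of ALAS1 turnover and supply. It was 0.30 for the 8 of heme uptake, export and scavenging and −0.09 for the 9 NFE2L2 targets. It was −0.04 for the 20 of iron handling and −0.12 for the 20 of the heme-carrying enzyme list, POR included. In these lists 0 genes were called at an adjusted p of 0.05. Without those 2 pigs these medians were 0.04, 0.23, 0.09, −0.02, −0.01 and 0.02 in the same order.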

How the data were processed

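The deposited values are whole-number counts of reads per Ensembl gene in 1 QuantSeq 3′ FWD library per pig. The authors name FastQC 11.8 for read quality, FLEXBAR 3.5.0 for trimming, TopHat 2.1.1 for alignment to the Sus scrofa 11.1 assembly, and HTSeq-count 0.11.1 with Ensembl 96 for the counts. Besides the genes, 5 tallies of reads outside them were listed and left out. Genes took up 42.8% to 55.1% of the reads, while 15.4% to 38.1% had several alignments and went uncounted, which makes levels of genes with close copies uncertain. Symbols were matched for 14857 genes, and positions are those of RefSeq on Sscrofa11.1, matched by symbol. No 2 of the 120 pairs of libraries were identical, and replicates are pigs.

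Each pair of diets was fitted in edgeR 4.0.16 (R 4.3.3) by its quasi-likelihood test, without covariates, after TMM normalization and filterByExpr (minimum count 10, minimum total 15), with Benjamini-Hochberg adjustment over all genes tested. The SE is the size of the log2 fold change divided by the square root of F. Sex was tested over all pigs. Covariation used log2 CPM with a prior count of 2. The fits of the diet pairs and the covariation by r were tested on simulated data. The members, lists and rules were chosen with earlier results of these data known. Genes named are all members and genes of a related list past an adjusted p of 0.05 in a pair of diets. Named too are the 2 most abundant of each such list (1 of each marker list). In covariation the 5 highest and 3 lowest are named, among genes with a symbol and a mean of at least 20 reads. A few other listed genes are named where they bear on what a list shows. Alternatives were DESeq2 1.42.0, RLE normalization, no filter, a filter of 10 reads in every pig, a fit of all pigs together, a covariate for sex (for diet in the sex test), a replicate block, thinned counts, a prior count of 0.5, diet means not removed, the mean of log2 CPM of the later steps, and each pig left out.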

Additional observations from a re-analysis of the deposited data

Results flagged for a closer look

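UROS in pig 3 of group B, at 160 CPM, was far above the other pigs of its diet, with a gap to the next pig that made up 0.803 of the range of the group. Of 30 groups of values examined (8 members, the summed later steps and the ALAS1 share in 3 diets), this was the only one so marked, and chance marks about 1 in 20 groups. The same pig had the lowest ALAS1 of its diet and stood apart as a library.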

How the results depend on the processing

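Of 444 log2 fold changes of members between diets under the alternatives, 419 kept their sign and 0 moved by over 1 SD between pigs, and all 56 of ALAS1 kept theirs. Signs turned for UROS, CPOX, ALAD, BLVRB and HMOX1 in comparisons with a log2 fold change between −0.20 and 0.14. Same-numbered pigs of different diets correlated between −0.25 and 0.14, so the numbers do not pair them; with a replicate block 35 genes were called in beef tallow against rapeseed oil and 1 related gene in place of 4, 1 member in coconut oil against rapeseed oil, and 1 related gene in coconut oil against beef tallow. The replicate block also ended the calls of TTR and LYVE1, as did sex as a covariate, and TTR was lost without a filter and LYVE1 by RLE and with thinned counts.

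In beef tallow against rapeseed oil 70 genes were called, but 188 by DESeq2 and 190 without a filter, which also called 1 member. In coconut oil against rapeseed oil the 9 genes called became 93 by DESeq2, 82 without a filter and 14 with at least 10 reads in every pig. There 1 member was called by DESeq2, without a filter, with at least 10 reads in every pig and with thinned counts, and 2 related genes by DESeq2 and 1 without a filter. In coconut oil against beef tallow the 4 genes became 53 by DESeq2, 22 without a filter and 8 with all pigs in 1 fit, and DESeq2 and no filter called 1 related gene each. With diet means not removed, 3 genes in place of 81 covaried with ALAS1. The cause of these differences was not tested.

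With each pig left out in turn, the genes called ran from 9 to 149 in beef tallow against rapeseed oil, from 3 to 27 in coconut oil against rapeseed oil and from 4 to 9 in coconut oil against beef tallow. Members called ran from 0 to 1 in the first (1 without pig 3 of group B) and from 0 to 1 in the second (1 without pig 4 of group R or pig 1 of group C). Related genes called ran from 1 to 5 in the first and from 0 to 1 in the third, and genes that covaried with ALAS1 from 2 to 80. The ALAS1 difference ran from 0.87 to 1.55, from 1.31 to 1.82 and from 0.04 to 0.63. FECH and UROD rested on few reads, and PPOX was not measurable.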
